A study of Mus musculus with 12 samples.

Results

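The Slc25 family comprises related carriers, most of them in the inner mitochondrial membrane, and its members were taken as all genes of the count tables whose symbol begins with Slc25a followed by a digit. This rule, which uses the gene name and no measured value, gave 47 members of 24062 genes, of which 40 reached at least 1 CPM, a count scaled to the size of the library, in at least 2 mice and were tested. Liver RNA-seq was compared between 6 female C57BL/6J mice on the control diet, numbered 1 to 6, and 6 on the matched diet containing BIBB-515, numbered 6 to 11. BIBB-515 inhibits lanosterol synthase, the enzyme encoded by Lss that closes the sterol ring system in cholesterol synthesis, and was dosed at 55 mg/kg body weight for 10 days. All mice were 6 weeks old on arrival, had 2 weeks of acclimation and ate the control diet, with 15% of energy as fat, 65% as carbohydrate and 20% as protein, for the last 3 days before the diets diverged. No transgene or deletion is named for either group. The labels give no batch and no cage for the sequenced mice. Mice were housed several to a cage and BIBB-515 was given in the food, so an effect of cage cannot be told apart from diet. The p-values treat these mice as independent and measure the spread between them.

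The inner mitochondrial membrane is closed to most metabolites, and most Slc25 proteins carry a narrow set of substrates across it, commonly by exchanging a molecule of the matrix for a molecule of the cytosol. In liver these carriers connect the mitochondrion to the urea cycle, gluconeogenesis, fatty acid synthesis, fatty acid oxidation and heme synthesis. Cholesterol synthesis depends on the family because the acetyl units it uses leave the mitochondrion as citrate through the carrier encoded by Slc25a1.

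Between 22764819 and 27914647 reads per control mouse and between 24223939 and 31058370 per BIBB-515 mouse were counted on genes (two-sided exact permutation p = 0.123). The 20 highest genes took 27.7% to 29.8% of the counts in control mice and 23.6% to 25.2% in BIBB-515 mice (two-sided exact permutation p = 0.00216). Lss, the gene of the inhibited enzyme, ranged from 34.8 to 166 CPM in control mice and from 111 to 179.6 CPM in BIBB-515 mice and missed an FDR of 0.05 (log2 fold change 0.78, SE 0.29, FDR 0.0854). BIBB-515 is known as an inhibitor of the enzyme itself. The Lss RNA values of the groups overlapped, although 6 of 6 BIBB-515 mice were above the control mean. The estimate was a 1.72-fold higher level (two-sided exact permutation p = 0.0195). The summed level of 5 hepatocyte markers was 137782 to 154183 CPM in control mice and 103143 to 117990 CPM in BIBB-515 mice, and most of this sum is Alb, with a mean of 119993 CPM in control and 90847 CPM in BIBB-515 mice. Of these markers 2 (40%, beside 6.48% of all tested genes) were past the threshold as lower, Alb (log2 fold change -0.40, FDR 0.0129) and Ttr (-0.49, FDR 0.00391), while Apoa1 had -0.27 (FDR 0.128), Serpina1a -0.16 (FDR 0.381) and Cps1 -0.09 (FDR 0.769). Of 5 stellate cell markers 2 were lower, Lrat (log2 fold change -0.81, FDR 0.0202) and Dcn (-0.27, FDR 0.0398), again 40% beside 6.48%, while Des had -0.21 (FDR 0.237), Reln -0.08 (FDR 0.643) and Col1a1 0.19 (FDR 0.453). None of the tested markers of Kupffer cells, other leukocytes, endothelial cells, bile duct cells or fat cells, 5, 3, 5, 5 and 1 genes, was past it by edgeR, 1 of them (the bile duct marker Spp1) had an unadjusted p under 0.05 and was called by DESeq2, and no muscle marker was high enough to be tested. The part of these marker shifts in the results for the carriers was not tested. In bulk liver, fewer cells of a type and less RNA per cell cannot be told apart.

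Levels between genes were compared per exon length, as TPM, gene counts divided by exon length and scaled to the same total in every mouse. Slc25a47, a carrier found mostly in liver, was the highest member, with a mean of 1179 TPM over all 12 mice and a range of 1013 to 1412 TPM in control and 938 to 1331 TPM in BIBB-515 mice. Slc25a5, the ubiquitous ADP/ATP carrier, followed at 522 to 754 TPM in control and 630 to 711 TPM in BIBB-515 mice. Slc25a39, the mitochondrial glutathione carrier, ranged from 442 to 503 TPM in control and from 565 to 598 TPM in BIBB-515 mice. Within each diet, the ranges of these top members did not overlap each other. Slc25a3, the phosphate carrier, lay at 332 to 419 TPM in control and 369 to 414 TPM in BIBB-515 mice. Slc25a1, the citrate carrier, lay at 247 to 368 TPM in control and 313 to 361 TPM in BIBB-515 mice. The ranges of Slc25a3 and Slc25a1 overlapped in control mice but not in BIBB-515 mice, and the range of Slc25a1 overlapped that of Slc25a22, a glutamate carrier with a mean of 302 TPM, on both diets. The plot of levels by mouse shows that the family spanned several orders of magnitude within the same liver.

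**Figure D1:**
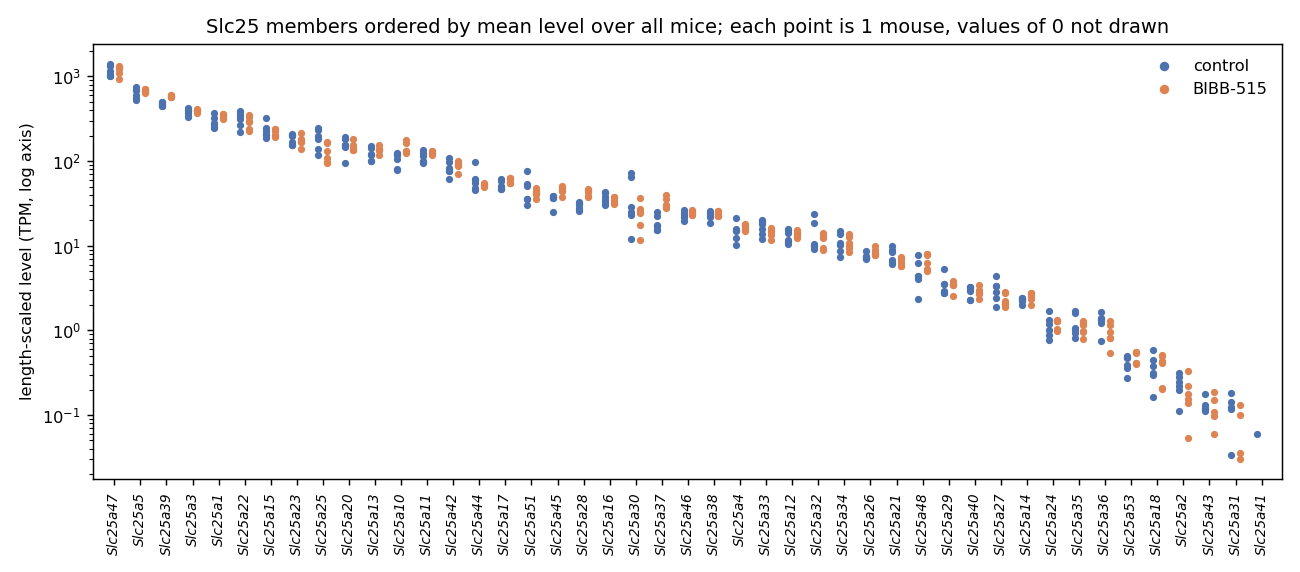
Length-scaled level (TPM, log axis) of 45 Slc25 members in each of the 12 mice, ordered by the mean over all mice, with control mice in blue and BIBB-515 mice in orange. Slc25a47 is highest at a mean of 1179 TPM; Slc25a54, with 0 counts in every mouse, and single values of 0 are not drawn.

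The family as a whole took a similar share of the transcriptome on both diets. Its summed level was 4600 to 5545 TPM in control and 4716 to 5323 TPM in BIBB-515 mice, and it received 0.505% to 0.607% and 0.520% to 0.585% of all gene counts, so the groups overlapped. The 7 members that were not tested were Slc25a2, Slc25a18, Slc25a31, Slc25a41, Slc25a43, Slc25a53 and Slc25a54. Of these, Slc25a53 reached at most 0.930 CPM, Slc25a41 had 1 count in all mice together, and Slc25a54 had none, where a count of 0 allows up to 0.140 CPM in the shallowest library (3 counts, counting error only). Slc25a31, the testis form of the ADP/ATP carrier, reached at most 5 counts in any mouse.

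Across all tested genes, 1705 of 12481 (13.7%) were past an FDR of 0.05 by edgeR's quasi-likelihood test, 896 (7.18%) higher and 809 (6.48%) lower in BIBB-515 mice. Of the 40 tested members, 3 (7.5%) were higher and 1 (2.5%) was lower, so 4 members (10%) were called beside 13.7% of all genes. An unadjusted p under 0.05 was found for 10 of the 40 members, beside 3713 of all 12481 tested genes. The members called higher were the iron carriers Slc25a37 and Slc25a28 and the glutathione carrier Slc25a39, and the member called lower was Slc25a25, a carrier of ATP-Mg and phosphate. The median log2 fold change of the tested members was 0.05, with 22 above and 18 below 0 and a range of -0.74 to 0.74, beside a median of -0.01 over all tested genes. The control and BIBB-515 ranges did not overlap for 3 members, beside 7.07% of all tested genes, and these were the same 3 members that were called higher.

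**Figure D2:**
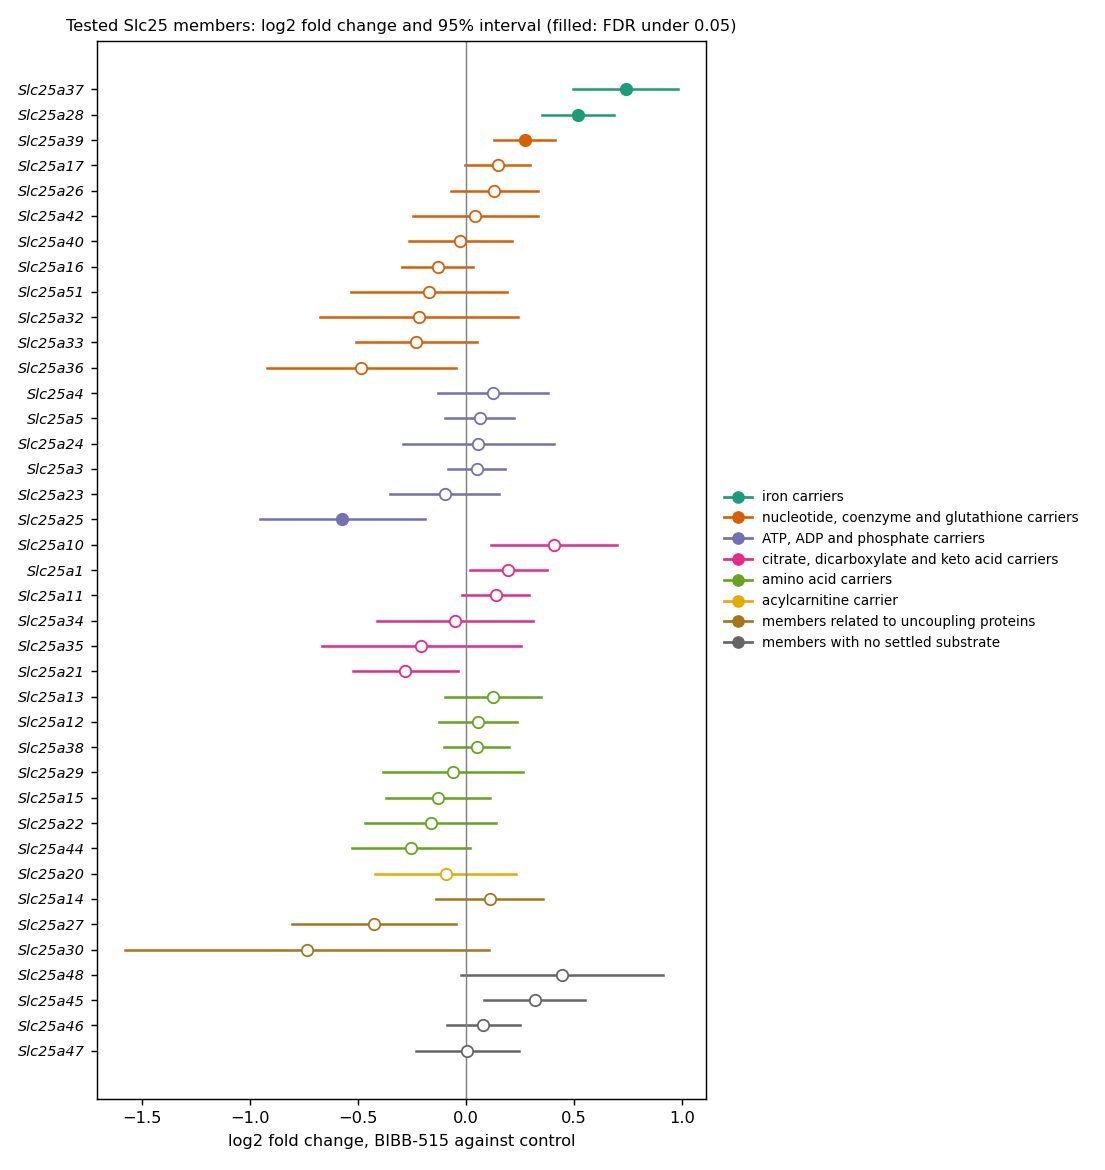
Log2 fold change (BIBB-515 against control) of 39 of the 40 tested Slc25 members with its 95% interval from the edgeR fit, colored by the substrate of the carrier; filled points are past an FDR of 0.05. The iron carriers Slc25a37 (0.74) and Slc25a28 (0.52) lie farthest to the right, and Slc25a30 (-0.74) has the widest interval.

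Both members of the iron carrier group, which holds only 2 genes, rose (100%, beside 7.18% of all tested genes). Mitoferrin 1 and mitoferrin 2, encoded by Slc25a37 and Slc25a28, bring iron into the matrix for heme and iron-sulfur cluster synthesis. Slc25a37 (mm10, chromosome 14, 69241851 to 69285103, minus strand) had 35.0, 37.5 and 52.5 CPM as lowest, median and highest value in control mice and 62.3, 64.2 and 83.7 CPM in BIBB-515 mice. The lowest BIBB-515 mouse was above the highest control mouse, and within the control diet mice 3 and 4 stood above the other four at 52.5 and 49.4 CPM. The log2 fold change was 0.74 (SE 0.11, 95% interval 0.50 to 0.98, edgeR FDR 0.000801), a 1.67-fold higher level (two-sided exact permutation p = 0.00216, the smallest that the labelings of 12 mice allow). Of the 50-base words of its transcript sequence 6.99% also occur in other genes, and its summed count in the primary alignment tables was 100% of that in the gene tables.

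Slc25a28 (chromosome 19, 43663801 to 43674881, minus strand) had 21.4, 23.9 and 25.2 CPM in control mice and 28.7, 34.6 and 39.3 CPM in BIBB-515 mice, again as lowest, median and highest. The groups did not overlap, and the control mice lay within 4 CPM of each other. Its log2 fold change was 0.52 (SE 0.08, 95% interval 0.35 to 0.69, edgeR FDR 0.00063), a 1.43-fold higher level (exact permutation p = 0.00216). Per length, Slc25a28 ranged from 25.8 to 33.1 TPM and Slc25a37 from 15.3 to 25.4 TPM in control mice, without overlap, and in BIBB-515 mice they were at 42.8 ± 4.01 and 32.1 ± 4.70 TPM (SD, n = 6 each), with overlap. Neither call was lost in any fit that left out 1 mouse or under any other setting. Slc25a37 is also abundant in red cell precursors, and the blood content of the livers was therefore examined after these values were seen. Alas2, the heme synthesis enzyme of red cells, ranged from 9.55 to 15.6 CPM in control and from 9.28 to 13.5 CPM in BIBB-515 mice (log2 fold change -0.16, FDR 0.468). The globin genes stood at 0 in the gene tables, and the reason was not tested. In the tables that count primary alignments Hbb-bs was at 58.8 to 155.5 CPM in control and 41.9 to 89.0 CPM in BIBB-515 mice (log2 fold change -0.35, FDR 0.405). These blood markers did not pass the test, and the part of blood in the result for Slc25a37 was not tested.

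Other genes of mitochondrial iron and heme handling, also looked up after the mitoferrins, are given with their values. Abcb10, a partner of mitoferrin 1, had a log2 fold change of -0.07 (FDR 0.682). Alas1, the first enzyme of heme synthesis in liver, had 0.35 (FDR 0.435) with a wide spread between mice, 191 to 856 CPM in control and 403 to 951 CPM in BIBB-515 mice. Fech, which inserts the iron, had 0.00 (FDR 0.992). None of these genes was past the threshold.

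The promoter window of Slc25a28 is shown because its start site carried reads in the exon tables, with a mean of 59.2 counts on the first exon row. RefSeq sequence of build GRCm38.p6, the same assembly as mm10, was used for 46 windows of 36 members, Slc25a37 not among them. The sequence runs 5′ to 3′ on the minus strand over the 250 bases before the start, chr19:43674882-43675131, and capitals mark the GC box GGGCGG and the CCAAT box, searched on both strands.

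Slc25a28: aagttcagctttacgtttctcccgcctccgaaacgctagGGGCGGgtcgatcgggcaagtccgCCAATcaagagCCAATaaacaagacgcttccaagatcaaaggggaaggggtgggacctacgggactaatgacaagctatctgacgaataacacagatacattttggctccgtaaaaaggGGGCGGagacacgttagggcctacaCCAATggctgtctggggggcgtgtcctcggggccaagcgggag

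This window holds 2 GC boxes and 3 CCAAT boxes. Among 32851 RefSeq windows of the same length 32.7% hold a GC box and 33.8% a CCAAT box, and among the 46 windows of members 32 (69.6%) and 21 (45.7%) do. Windows of 1 gene with several starts can overlap, and a match is a description of letters and not a binding site.

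Of the 11 nucleotide, coenzyme and glutathione carriers, 1 rose (9.09%, beside 7.18% of all tested genes), none fell, and their median log2 fold change was -0.02. Slc25a39, which carries glutathione into the matrix, lies on chromosome 11 (102402976 to 102407517, minus strand). Its lowest, median and highest values were 389.9, 401 and 471 CPM in control mice and 474, 502 and 530.0 CPM in BIBB-515 mice. The ranges nearly touched, since control mouse 5 at 471 CPM lay just below BIBB-515 mouse 6 at 474 CPM, but did not overlap. The log2 fold change was 0.27 (SE 0.07, 95% interval 0.13 to 0.41, edgeR FDR 0.0139), a 1.21-fold higher level (exact permutation p = 0.00216). Slc25a40, the paralog with the same substrate, was far lower at a mean of 2.85 TPM against 526 TPM and had a log2 fold change of -0.02 (SE 0.11, 95% interval -0.26 to 0.21, FDR 0.91).

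The promoter window of Slc25a39 (GRCm38.p6, chr11:102407518-102407767, minus strand, 5′ to 3′) is shown for comparison with that of Slc25a28, with the same motifs in capitals.

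Slc25a39: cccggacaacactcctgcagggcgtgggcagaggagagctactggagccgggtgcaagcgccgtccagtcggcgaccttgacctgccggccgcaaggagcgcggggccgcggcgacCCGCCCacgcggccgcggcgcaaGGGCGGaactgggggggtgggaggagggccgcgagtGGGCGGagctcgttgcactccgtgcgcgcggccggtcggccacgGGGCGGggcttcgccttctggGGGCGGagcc

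It holds 5 GC boxes, 1 of them as the reverse complement CCGCCC, and no CCAAT box. Neither this window nor that of Slc25a28 holds the antioxidant response element core TGACNNNGC on either strand, which 10.2% of all windows and 9 of 46 member windows (19.6%) hold.

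Among the other cofactor carriers no member was past the threshold. Slc25a17, the coenzyme A and nucleotide carrier of peroxisomes, had a log2 fold change of 0.15 (FDR 0.173) and was above the control mean in 6 of 6 BIBB-515 mice. Slc25a16 and Slc25a42, linked to coenzyme A, had -0.13 (FDR 0.279) and 0.04 (FDR 0.869). Slc25a36 and Slc25a33, carriers of pyrimidine nucleotides, had -0.48 (FDR 0.128) and -0.23 (FDR 0.261), and Slc25a36 was the lowest of the tested members at 1.11 TPM. Slc25a51, the NAD carrier, had -0.17 (FDR 0.542), and Slc25a32, the folate and flavin carrier, had -0.22 (FDR 0.541). Slc25a26, for S-adenosylmethionine, had 0.13 (FDR 0.381). It overlaps Lrig1, and its count rose to 117.6% of the gene count when reads on overlapping genes were counted for each gene.

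**Figure D3:**
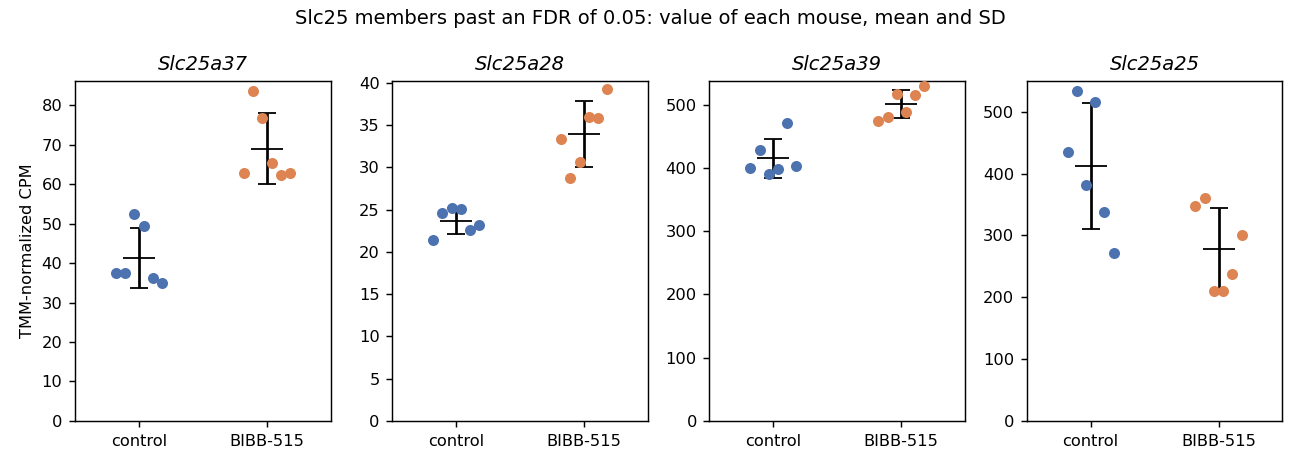
TMM-normalized CPM of the 4 Slc25 members past an FDR of 0.05 in each of the 6 control mice (blue) and 6 BIBB-515 mice (orange), with the mean and SD per diet in black and axes that start at 0. The groups are separate for Slc25a37 (52.5 against 62.3 CPM at the nearest mice), Slc25a28 and Slc25a39, and overlap for Slc25a25.

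Of the 9 carriers of ATP, ADP and phosphate, 6 were tested, 1 fell (16.7%, beside 6.48% of all tested genes) and none rose. Their median log2 fold change was 0.05. Slc25a25 (chromosome 2, 32414487 to 32451470, minus strand) encodes a calcium-regulated carrier that exchanges ATP-Mg for phosphate and so changes the total adenine nucleotide of the matrix. Its lowest, median and highest values were 272, 408 and 534 CPM in control mice and 209.9, 269 and 359.9 CPM in BIBB-515 mice. The groups overlapped, with control mice 5 and 6 at 338 and 272 CPM and BIBB-515 mice 6 and 7 at 347 and 359.9 CPM. The log2 fold change was -0.57 (SE 0.18, 95% interval -0.95 to -0.19, edgeR FDR 0.0473), lower than the control mean in 6 of 6 BIBB-515 mice (exact permutation p = 0.0303). This call was close to the threshold and was lost without control mouse 1 (FDR 0.0841), 2 (0.0871), 3 (0.0552) or 4 (0.0998) and without BIBB-515 mouse 8 (0.0992), 9 (0.102), 10 (0.0998) or 11 (0.0708). It was also lost with upper-quartile normalization (FDR 0.0515), without the filter on low counts (0.0501) and in the primary alignment tables (0.0509).

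The exon tables list 3 alternative first exons of Slc25a25, and in these livers the reads lay at the third. The exons of Slc25a25 overlap those of Naif1. The count of Slc25a25 was 100.02% of the gene count when reads on overlapping genes were counted for each gene. The rows at 32451067 to 32451470 and 32430529 to 32431151 had a mean of 1.75 and 0.5 counts per mouse, and the row at 32423794 to 32424066 had 350. The window before this start (GRCm38.p6, chr2:32424067-32424316, minus strand, 5′ to 3′) is printed because it is the start in use here, and capitals mark the full palindrome of the cAMP response element, TGACGTCA.

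Slc25a25: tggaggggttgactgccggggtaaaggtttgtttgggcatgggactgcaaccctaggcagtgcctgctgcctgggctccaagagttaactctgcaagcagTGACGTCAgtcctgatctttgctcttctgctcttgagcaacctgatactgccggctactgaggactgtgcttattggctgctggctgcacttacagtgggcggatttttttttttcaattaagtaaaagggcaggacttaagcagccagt

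The first base of the match lies 150 bases before the start. The motif, which reads the same on both strands, occurs in 508 of 32851 windows of this length (1.55%) and in 2 of 46 member windows (4.35%), the other being that of Slc25a36. The motif was searched after the values of Slc25a25 were known, and factor binding was not measured.

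The remaining energy carriers had small differences. Slc25a5 had 367, 413 and 464 CPM in control and 404, 431 and 479 CPM in BIBB-515 mice (log2 fold change 0.06, SE 0.08, FDR 0.622), and 33.8% of its 50-base words occur in other genes. Slc25a3 had 275, 299 and 317 CPM in control and 289, 308 and 339.9 CPM in BIBB-515 mice (log2 fold change 0.05, SE 0.06, FDR 0.634). For Slc25a3 the 95% interval of the log2 difference was -0.08 to 0.18, so a change of the size seen for Slc25a39 lies outside it. Slc25a4, the ADP/ATP carrier of heart and muscle, had a mean of 15.8 TPM and a log2 fold change of 0.13 (FDR 0.519). Slc25a23 and Slc25a24, relatives of Slc25a25, had -0.10 (FDR 0.622) and 0.06 (FDR 0.849). Whether Slc25a25 differed from these relatives in its response was not tested.

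The differences of the called members ran in the same direction in most of their exon rows. In counts per exon, 4 of 4 exon rows of Slc25a37 and 4 of 4 of Slc25a28 had a higher mean in BIBB-515 mice, with ranges that did not overlap for 1 and 3 rows. Most counts of both genes lay in the last row. For Slc25a37 its mean was 39.3 of 41.3 CPM in control and 65.5 of 69.0 CPM in BIBB-515 mice, and only this row was without overlap. For Slc25a28 it was 18.7 of 23.7 CPM in control and 26.8 of 34.0 CPM in BIBB-515 mice. For Slc25a39, 12 of 12 rows were higher, with log2 ratios of 0.24 to 0.46 and no overlap for 4 rows. Of the 13 rows of Slc25a25, 11 had a mean of at least 10 counts, and 10 of these were lower (median log2 ratio -0.57). The exception was a 36-base row at 32420656 to 32420691, which had a mean of 0.921 ± 0.676 CPM in control and 1.25 ± 0.421 CPM in BIBB-515 mice (SD, n = 6 each) while the rows on either side had means of 16.1 and 21.5 CPM in control and 10.9 and 14.9 CPM in BIBB-515 mice. The exon counts come from the same reads as the gene counts and are not further evidence.

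**Figure D4:**
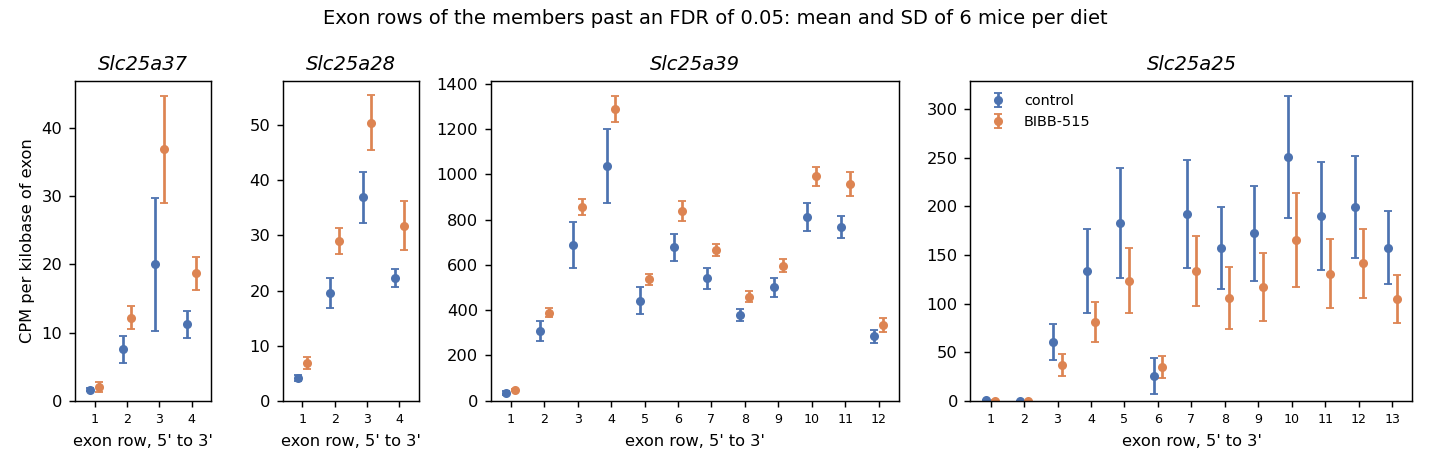
CPM per kilobase of exon for each exon row, numbered 5′ to 3′, of the 4 members past an FDR of 0.05, as the mean and SD of 6 control mice (blue) and 6 BIBB-515 mice (orange). Means are higher with BIBB-515 in every row of Slc25a37, Slc25a28 and Slc25a39, and lower in 10 of the 11 rows of Slc25a25 with at least 10 counts, the exception being row 6.

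None of the 6 citrate, dicarboxylate and keto acid carriers was past an FDR of 0.05 by edgeR, and DESeq2 called 1 and limma-voom none. Of the 6, 3 had an unadjusted p under 0.05, beside 3713 of all 12481 tested genes. Slc25a10, which exchanges malate or succinate for phosphate, had 157, 242 and 267 CPM in control and 259.7, 272 and 356 CPM in BIBB-515 mice. The groups overlapped through control mouse 5 at 267 CPM and BIBB-515 mouse 6 at 259.7 CPM. Its log2 fold change was 0.41 (SE 0.14, 95% interval 0.12 to 0.70, FDR 0.0601, exact permutation p = 0.00433), and 6 of 6 BIBB-515 mice were above the control mean. It passed the threshold with DESeq2 (FDR 0.0242), with 1 surrogate variable (0.00418) and without control mouse 2 (0.0487) or 5 (0.0356).

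Slc25a1, the citrate carrier, had 234, 239 and 306 CPM in control and 272, 291 and 329 CPM in BIBB-515 mice. The groups overlapped through control mice 3 and 4, although the control mean was exceeded in 6 of 6 mice on BIBB-515. The log2 fold change was 0.20 (SE 0.08, 95% interval 0.02 to 0.38, FDR 0.128, exact permutation p = 0.039), and it passed the threshold without control mouse 3 (FDR 0.0366) and with 1 surrogate variable (0.0318). The enzymes of the citrate export route had no member past the threshold among 8 tested by edgeR, 1 with DESeq2, and a median log2 fold change of -0.19. Of these 8 enzymes 2 had an unadjusted p under 0.05, beside 3713 of all 12481 tested genes. Acly, which splits the exported citrate, ranged from 276 to 3083 CPM in control and from 299 to 845 CPM in BIBB-515 mice (log2 fold change -0.93, SE 0.49, FDR 0.224). Fasn, fatty acid synthase, ranged from 892 to 8361 CPM in control and from 1151 to 2374 CPM in BIBB-515 mice (-0.70, SE 0.43, FDR 0.292). The control mice thus spread far more widely in these lipogenic enzymes than in the citrate carrier itself.

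Slc25a11, the oxoglutarate and malate carrier, had 97.1, 107 and 129 CPM in control and 112, 119.7 and 128 CPM in BIBB-515 mice (log2 fold change 0.14, SE 0.07, FDR 0.226). Slc25a21, which carries oxoadipate from lysine breakdown, had -0.28 (FDR 0.114), and Slc25a34 and Slc25a35, placed here by their likeness to oxaloacetate carriers, had -0.05 (FDR 0.88) and -0.21 (FDR 0.569). Slc25a35 had a mean of 1.13 TPM and overlaps Rangrf.

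No amino acid carrier was past the threshold by edgeR among 7 tested, none had an unadjusted p under 0.05, none was called by DESeq2 or limma-voom, and the median log2 fold change was -0.06. Slc25a13, the main aspartate and glutamate carrier of liver and a step of the malate-aspartate shuttle, had 155, 208 and 238 CPM in control and 200.1, 217 and 244 CPM in BIBB-515 mice (log2 fold change 0.13, SE 0.10, FDR 0.445). Slc25a12, its form in brain and muscle, had 16.9, 19.8 and 23.1 CPM in control and 19.7, 20.6 and 23.4 CPM in BIBB-515 mice (0.06, SE 0.08, FDR 0.697). Both ranges in BIBB-515 mice lay almost wholly inside the control range. Slc25a15, the ornithine carrier of the urea cycle, had 354, 404 and 568 CPM in control and 345, 383 and 448 CPM in BIBB-515 mice (-0.13, SE 0.11, FDR 0.471). Slc25a44, which carries branched-chain amino acids, had 93.0, 108 and 175 CPM in control and 90.6, 96.7 and 103 CPM in BIBB-515 mice (-0.25, SE 0.13, FDR 0.199). Control mouse 3 was the one at 175 CPM, and without it the log2 fold change of Slc25a44 was -0.09 (FDR 0.423), whereas with 1 surrogate variable in the fit of all mice it passed the threshold (FDR 0.0305). Slc25a22, Slc25a29 and Slc25a38, for glutamate, basic amino acids and glycine, had -0.16, -0.06 and 0.05 (FDR 0.477, 0.833 and 0.683).

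Slc25a20, which exchanges acylcarnitine for carnitine and so admits long-chain fatty acids for oxidation, had 83.7, 143 and 194 CPM in control and 122, 136 and 162 CPM in BIBB-515 mice. The control mice enclosed the whole BIBB-515 range, with control mouse 3 lowest and control mice 5 and 6 highest at 194 and 179.4 CPM. The log2 fold change was -0.09 (SE 0.15, 95% interval -0.42 to 0.23, FDR 0.726). The carnitine shuttle enzymes had 7 tested genes and none past the threshold by edgeR, DESeq2 or limma-voom, none with an unadjusted p under 0.05, and a median of -0.04. Cpt1a, the entry step of the shuttle, had a log2 fold change of -0.21 (FDR 0.453) and Cpt2 had 0.09 (FDR 0.766).

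The members related to uncoupling proteins had 3 tested genes and none past the threshold by edgeR, DESeq2 or limma-voom, with 1 at an unadjusted p under 0.05. Slc25a30 had the lowest estimate of the family, but its control mice were widely spread, with control mice 5 and 6 at 62.5 and 68.3 CPM, control mouse 3 at 10.1 CPM and the others between 20.1 and 25.5 CPM. BIBB-515 mice ranged from 10.9 to 32.2 CPM, and the log2 fold change was -0.74 (SE 0.39, 95% interval -1.58 to 0.11, FDR 0.229). Slc25a27 had -0.43 (FDR 0.122, 0.0437 with 1 surrogate variable) and Slc25a14 had 0.11 (FDR 0.573).

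Slc25a47, the member with the highest level, had 795, 976 and 1140.0 CPM in control and 769, 999 and 1143 CPM in BIBB-515 mice. The ranges coincided, and the log2 fold change was 0.01 (SE 0.11, 95% interval -0.23 to 0.24, FDR 0.979). Of the other members without a settled substrate, Slc25a45 had 0.32 (SE 0.11, FDR 0.0666) with 6 of 6 BIBB-515 mice above the control mean, Slc25a48 had 0.45 (SE 0.22, FDR 0.186), and Slc25a46, a protein of the outer membrane, had 0.08 (FDR 0.534). Slc25a45 passed the threshold with DESeq2 (FDR 0.0411), with 1 surrogate variable (0.04) and without control mouse 5 (0.0385). The 4 tested members of this group had estimates above 0, with a median of 0.20, although that of Slc25a47 fell below 0 when some of the mice were left out and with 1 surrogate variable.

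The control mice varied more than the BIBB-515 mice in most members, a comparison made after the values were seen. The SD of log2 CPM was larger in control mice for 37 of 40 members (92.5%), beside 77.9% of all tested genes, and its median was 0.26 in control and 0.16 in BIBB-515 mice for the members, beside 0.20 and 0.13 for all genes. Slc25a28 was among the exceptions, with an SD of 0.10 in control and 0.17 in BIBB-515 mice. Control mouse 2 had the highest control value in 12 members, control mouse 6 the lowest in 12, and control mouse 3 the lowest in 10 and the highest in 9 of the 40 members. Over all tested genes, control mouse 2 was highest in 16%, control mouse 6 lowest in 13%, and control mouse 3 lowest in 19% and highest in 19.2%. Slc25a20, Slc25a42 and Slc25a30 each had their highest control values in mice 5 and 6 and their lowest in mouse 3. Slc25a42 had 176 and 189 CPM in control mice 5 and 6 and 98.1 CPM in control mouse 3. The members do not vary independently of each other, so these counts are descriptions.

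**Figure D5:**
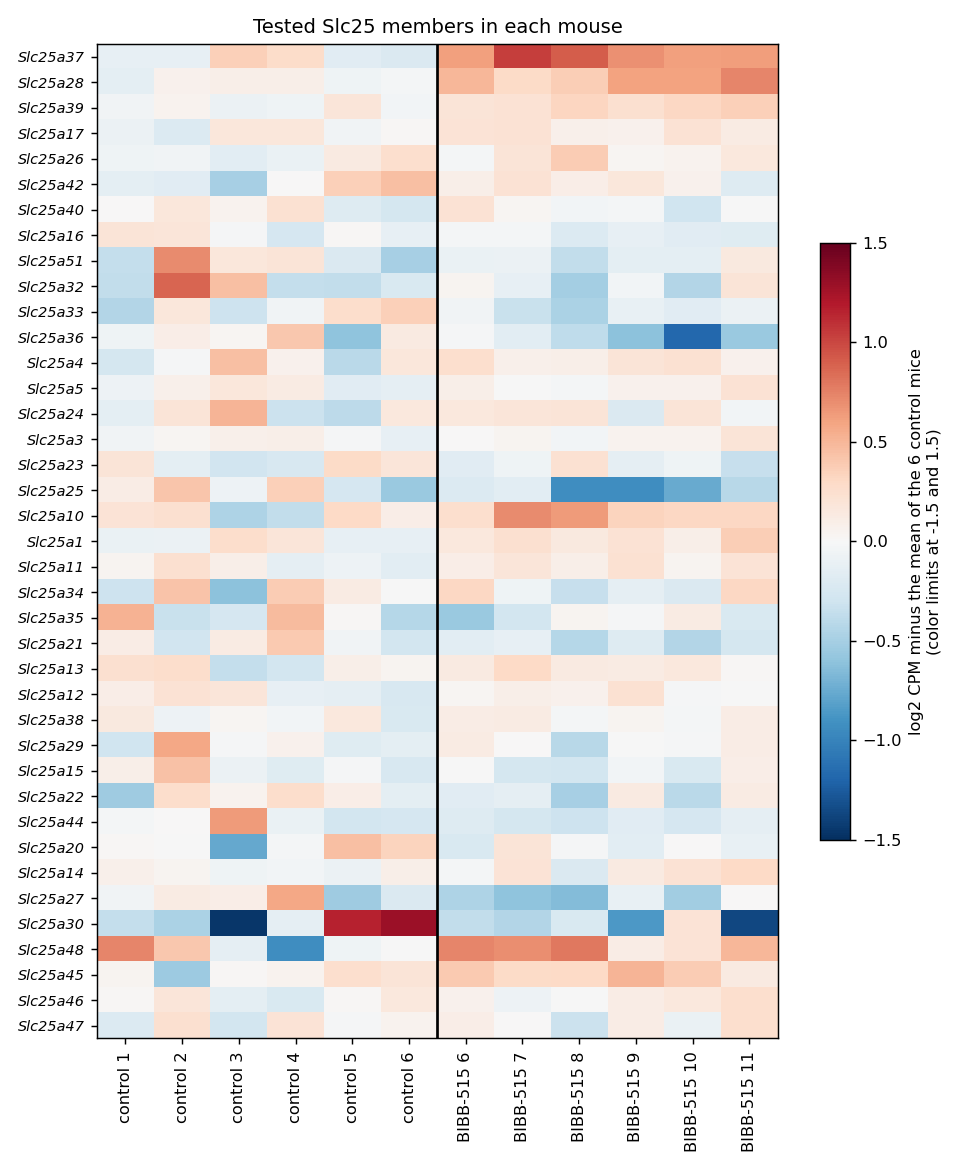
Log2 CPM of 39 of the 40 tested Slc25 members (rows, ordered by substrate group) in each mouse (columns), minus the mean of the 6 control mice; red is above and blue below that mean, with color limits at -1.5 and 1.5. Slc25a37, Slc25a28 and Slc25a39 are red in all 6 BIBB-515 mice, and Slc25a30 is high in control mice 5 and 6 (62.5 and 68.3 CPM) and low in control mouse 3.

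Carriers of the same protein family with other symbols were also examined, and of 3 tested 2 rose (66.7%, beside 7.18% of all tested genes). Ucp2, an uncoupling protein family member that exports metabolites from the matrix, had 42.9, 56.3 and 61.9 CPM in control and 57.8, 70.7 and 91.8 CPM in BIBB-515 mice. The groups overlapped slightly, and its log2 fold change was 0.47 (SE 0.12, FDR 0.0171). Mtch2, an outer membrane protein that inserts other proteins, had 147, 163 and 181 CPM in control and 183, 196 and 213 CPM in BIBB-515 mice. These groups did not overlap, and the log2 fold change was 0.27 (SE 0.06, FDR 0.0118). Mtch1 had 0.14 (SE 0.06, FDR 0.141), and Ucp1 and Ucp3 were too low to be tested.

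The machinery that imports carrier precursors had 15 tested genes, of which 2 rose (13.3%, beside 7.18% of all tested genes) and none fell, with a median log2 fold change of 0.14 beside -0.01 for all genes. Tomm5, a small subunit of the outer membrane pore, rose with a log2 fold change of 0.35 (FDR 0.014), and Timm13, a chaperone of the intermembrane space, with 0.29 (FDR 0.0129). Of 19 tested genes for other transport across mitochondrial membranes, 2 rose (10.5%, beside 7.18%) and none fell. Slc8b1, the sodium-calcium exchanger, had 0.41 (FDR 0.0412), and Abcb8, an ATP-binding cassette protein of the inner membrane, had 0.18 (FDR 0.0409). The subunits of the pyruvate carrier, Mpc1 and Mpc2, had -0.18 (FDR 0.0717) and -0.22 (FDR 0.102).

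Of 6 redox shuttle enzymes 1 fell (16.7%, beside 6.48% of all tested genes), and DESeq2 also called Mdh1 and Mdh2, the malate dehydrogenases, as higher. Gpd2, the mitochondrial glycerol phosphate dehydrogenase, had 71.5, 85.5 and 116 CPM in control and 48.6, 64.6 and 71.8 CPM in BIBB-515 mice (log2 fold change -0.51, SE 0.12, FDR 0.0116). Got1 and Got2, an enzyme pair of the malate-aspartate shuttle, had -0.28 (FDR 0.454) and 0.05 (FDR 0.601). Of 10 tested genes of mitochondrial biogenesis, 1 rose and 1 fell (10% each, beside 7.18% and 6.48%). These lists are small, so 1 or 2 genes set their shares. Ppargc1a, the coactivator that raises mitochondrial gene expression, had 24.7 ± 9.29 CPM in control and 14.3 ± 2.31 CPM in BIBB-515 mice (SD, n = 6 each, log2 fold change -0.79, SE 0.19, edgeR FDR 0.0139). Esrra, a nuclear receptor it acts through, had 34.3, 36.8 and 46.0 CPM in control and 40.9, 52.3 and 54.9 CPM in BIBB-515 mice (0.39, SE 0.09, FDR 0.011). The coactivator and its partner receptor thus passed the threshold in opposite directions, with groups that overlapped for both.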

How the data were processed

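Liver RNA-seq of 12 mice was analysed, with diet and replicate number taken from the labels. The authors deposited whole-number counts per gene and per exon for each mouse, made from STAR 2.5.3a alignments with featureCounts 1.6.3 on a UCSC annotation of mm10, unstranded and without multi-mapping reads. Tables of primary alignments, in which reads on overlapping genes are counted for each gene, served as an alternative. Transcript tables were not used. How the libraries were prepared is not given in the sources used here.

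A gene was tested where 2 or more mice reached 1 CPM. Counts were TMM-normalized, and diet was tested by quasi-likelihood in edgeR (version 4.0.16, R 4.3.3) with Benjamini-Hochberg adjustment over 12481 genes. Single genes were also compared by two-sided exact permutation over all labelings of the mice. The procedure was tested on simulated counts, drawn independently for each mouse with the dispersions of this same fit. Effects shared between mice, such as cage, were therefore not part of that test. TPM used the exon lengths of the tables. No pair of mice on the same diet agreed within sampling noise (30 pairs, lowest chi-square per degree of freedom 12.7), and the common biological coefficient of variation was 0.143.

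Named with per-mouse values were members past an FDR of 0.05, the 5 highest by TPM and 10 carriers listed by substrate, and of related lists at most 4 genes past an FDR of 0.05. Ranges are also given for Lss, Acly and Fasn, which fall outside this rule. Other members are given by fold change, and per-mouse values of Slc25a29, Slc25a30, Slc25a42 and Slc25a45 and the iron, heme and blood genes were added after their values were seen. Members, lists and tests were chosen with earlier results of these data known. Timm29, Mcub, Twnk and Adgre1 of the lists had no match by symbol. Alternatives were DESeq2 1.42.0, limma-voom (limma 3.58.1), upper-quartile and RLE normalization, other filters, primary alignments, 1 surrogate variable (sva 3.50.0) and leaving out each mouse. Protein sequences and the planned comparison of alternative exons of Slc25a3, whose 8 exon rows do not list both, were not analysed here. Some genes are not reported here by name or plotted, although they stay in every count and fit.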

Additional observations from a re-analysis of the deposited data

Results flagged for a closer look

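In 4 of 82 sets of 6 mice (40 tested members and the total count, on each diet), 1 mouse stood apart from the others by Dixon's 95% criterion, where chance alone gives about 1 in 20, or 4.1 sets. Slc25a29 was highest in control mouse 2, at 5.28 CPM with the next mouse at 3.66 (gap over range 0.66), and lowest among BIBB-515 mice in mouse 8, at 2.60 CPM with the next at 3.46 (0.715). Slc25a44 was highest in control mouse 3, at 175 CPM with the next at 113 (0.752). Slc25a45 was lowest in control mouse 2, at 23.2 CPM with the next at 34.3 (0.647). None of these members was past an FDR of 0.05 with all mice included.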

How the results depend on the processing

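The calls of Slc25a28, Slc25a37 and Slc25a39 held under all 8 other settings and in all 12 fits without 1 mouse. The count of members higher, 3, became 5 with DESeq2 (adding Slc25a10 and Slc25a45) and 6 with 1 surrogate variable (adding Slc25a1 as well), and ranged from 3 to 5 when 1 mouse was left out. The count lower, 1, became 0 with upper-quartile normalization, without the filter and with primary alignments, 3 with 1 surrogate variable (Slc25a25, Slc25a27 and Slc25a44), and 0 to 1 when 1 mouse was left out, which follows Slc25a25. The median log2 fold change of the members stayed between 0.02 and 0.05. Over all genes, 1705 calls became 1489 to 2443 under other settings and 1199 to 1865 when 1 mouse was left out, the fewest without BIBB-515 mouse 10; the cause of these shifts was not tested. The estimate of Slc25a47 (0.01) reversed to -0.000114 with 1 surrogate variable and ranged from -0.0443 to 0.0663 when 1 mouse was left out, and that of Slc25a20 from -0.20 to 0.00835 (reversed without control mouse 5), neither past the threshold. No paired analysis was possible because the groups share only 1 replicate number, 6. With 6 mice a group, members with few reads, such as Slc25a35 and Slc25a36, and those with widely spread control mice, such as Slc25a30, have wide intervals, so a missed threshold does not show equal levels.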
